A study of Mus musculus with 6 samples.

Results

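Malat1, Neat1, Meg3, Miat, Rian, Mirg and Snhg11 are long RNAs that work without being translated and that, in neurons, stay largely in the nucleus. They were taken as 7 of the 55487 genes of the count table, by matching each Ensembl gene identifier to its symbol in GENCODE (GRCm38), and were followed through every library as a gauge of how much nuclear RNA each library held. All 7 had counts in every library and all 7 passed the filter on low counts, by which 16119 genes were tested. The 7 were picked by name, with earlier results of these data known. GENCODE gives 5 of them the class lincRNA, Rian the class processed transcript and Snhg11 the class protein coding.

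The libraries were made from total RNA of mouse visual cortex at postnatal day 28, from strain B6.CBA/Tar, with a stranded total RNA kit. Mice carried 0, 1 or 2 copies of an Mmp9 allele (UTRmut) altered in an untranslated region. Mmp9 encodes a secreted protease that cuts the extracellular matrix around synapses. The groups are WT (WT/WT), het (UTRmut/WT) and UTRmut (UTRmut/UTRmut), with 2 libraries each, replicate 1 from a female and replicate 2 from a male, and no treatment is named. The labels do not say what the altered bases are, or whether animals, litters or preparation days were shared or pooled, so the p-values measure no more than the spread between the 6 samples, which may be technical in part. Total counts were 9500090 to 11966579 per library, and Mmp9 itself had 4 counts in the WT female, 16 in the UTRmut male and 8 or 9 in the other 4 libraries. Marker genes were read beside the cortical label. Slc17a7, the vesicular glutamate transporter of cortical excitatory neurons, stood at 875 to 1005 CPM (counts scaled to library size). Summed hippocampus markers stood at 112 to 166 CPM and summed striatum and thalamus markers at 44.6 to 63.0 CPM. These values alone do not fix the region. Of choroid plexus genes, Folr1 and Aqp1 stayed under 1 CPM and Kl stood at 1.40 to 4.75 CPM. Ttr, the most abundant choroid plexus transcript, reached 42.1 CPM in the WT male and 6.44 CPM in the UTRmut male, and was under 1 CPM in the other 4 libraries.

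Malat1 is a single-exon transcript concentrated in nuclear speckles, the bodies where splicing factors are stored, and Neat1 is the RNA around which paraspeckles assemble. Miat, also called Gomafu, forms its own nuclear patches in neurons. It carries repeats of the branch point sequence TACTAAC, which the splicing factor Sf1 and the RNA-binding protein Qk can bind. Celf3, another RNA-binding protein, was listed as a further partner of Miat. Meg3, Rian and Mirg are transcribed in the same direction from the maternal chromosome of the imprinted Dlk1-Dio3 domain, where they host small nucleolar RNAs and microRNAs. Snhg11 is a spliced small nucleolar RNA host gene of neurons.

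In GRCm38, Malat1 (ENSMUSG00000092341) lies on the minus strand of chromosome 19 from 5795690 to 5802672, and Neat1 (ENSMUSG00000092274) lies on the same strand from 5824708 to 5845478, with 22036 bases between them. Miat (ENSMUSG00000097767) is on the minus strand of chromosome 5 from 112213228 to 112229395. Meg3 (ENSMUSG00000021268) starts the cluster on the plus strand of chromosome 12 at 109541001 and ends at 109571726. Rian (ENSMUSG00000097451) follows from 109603940 to 109661716 after a gap of 32.2 kb, and Mirg (ENSMUSG00000097391) from 109729764 to 109749460 after a gap of 68.0 kb, so the cluster spans 208.5 kb. Snhg11 (ENSMUSG00000044349) is on the plus strand of chromosome 2 from 158375638 to 158386145, 6.55 Mb from Mmp9 on the same chromosome.

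The TACTAAC repeats set Miat apart from the other 6 by sequence. Its longest annotated transcript (9163 bases) held the 7 letters TACTAAC 6 times on the transcript strand, or 0.655 per kb, Neat1 held them once in 20771 bases, and the other 5 not at all. Of 1301 lincRNA genes with counts and a transcript of at least 1000 bases, 6.23% held the letters and 1.08% held them at the density of Miat or above. The windows below are 28 bases of the transcript, 5′ to 3′, with TACTAAC in capitals, and lie at chr5:112217434-112217461, chr5:112217334-112217361 and chr5:112216779-112216806 on the minus strand. They are shown because a reader can see the repeat, which is a match of letters and not a measured binding site.

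Miat window 1: tgtgattaaccTACTAACcaacccaggg

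Miat window 2: cgagcatgtccTACTAACcccgcagcag

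Miat window 3: gtgcTACTAACccggcccTACTAACtgg

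Malat1 and Neat1 share a feature at the 3′ end, where U-rich stretches and an A-rich tract are known to fold into a triple helix that protects transcripts without a poly(A) tail. The longest run of letters common to the last 400 bases of both transcripts was 16 bases, at chr19:5796018-5796033 for Malat1 and chr19:5824751-5824766 for Neat1. The A-rich tracts, found as 5 or more A followed by GCAAAA, lie at chr19:5795982-5795999 and chr19:5824708-5824718. All are on the minus strand, are written 5′ to 3′ as DNA, and are in capitals because the whole run is the shared or A-rich part. The tract of Neat1 ends at the last base of the annotated transcript, and that of Malat1 ends 292 bases before it.

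Shared run of Malat1 and Neat1: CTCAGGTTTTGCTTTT

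Malat1 A-rich tract: AAAAAAAAAAAAGCAAAA

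Neat1 A-rich tract: AAAAAGCAAAA

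The 3 cluster RNAs host 19 of the microRNA genes that matched RefSeq (GRCm38.p6), with 35 mature sequences and 34 seeds: 3 mature microRNAs lie in Meg3, 6 in Rian and 26 in Mirg. One seed, GGUUGCC, occurred in 2 of them, both in Mirg. The sequences below give 1 microRNA each of Meg3, Rian and Mirg and then that pair, 5′ to 3′ with the seed (bases 2 to 8) in capitals. Libraries of this kind do not capture mature microRNAs, so their levels were not measured.

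mmu-miR-770-5p (Meg3): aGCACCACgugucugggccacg

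mmu-miR-370-3p (Rian): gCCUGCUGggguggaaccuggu

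mmu-miR-134-5p (Mirg): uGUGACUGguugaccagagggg

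mmu-miR-453 (Mirg): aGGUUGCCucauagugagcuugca

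mmu-miR-496a-5p (Mirg): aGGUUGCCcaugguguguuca

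The 7 RNAs covered a wide range of levels. In CPM per kb of exon, a scale that allows genes to be compared, Malat1 stood at 1664 ± 243 (SD over the 6 libraries), Meg3 at 99.95 ± 24.9, Snhg11 at 81.5 ± 19.4, Rian at 46.7 ± 4.25, Miat at 27.3 ± 5.93, Mirg at 9.31 ± 1.61 and Neat1 at 1.49 ± 0.45. This order was the same in all 6 libraries. The ranges of Meg3 (75.6 to 140) and Snhg11 (61.4 to 111) overlapped, while those of the other neighbours in the order did not. Malat1 alone made up 73.1% to 76.9% of the counts of the 7. Between the lowest and the highest library, Neat1 differed 2.01-fold, Meg3 1.86-fold, Snhg11 1.81-fold, Miat 1.76-fold, Mirg 1.52-fold, Malat1 1.46-fold and Rian 1.26-fold.

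Meg3 stood at 2541 CPM in the WT female and 1368 CPM in the WT male, at 2153 and 1734 CPM in the het female and male, and at 1490 and 1563 CPM in the UTRmut female and male. The highest and the lowest of the 6 libraries were thus both WT, and UTRmut lay between them. Snhg11, in the same order, stood at 946 and 524 CPM in WT, 845 and 659 CPM in het, and 612 and 579 CPM in UTRmut. Miat stood at 350 and 199 CPM in WT, 285 and 244 CPM in het, and 220 and 225 CPM in UTRmut. These 3 RNAs, encoded on chromosomes 12, 2 and 5, ranked the WT female first, the het female second and the WT male last. The WT female was first and the het female second for 8.83% of all genes tested, whichever library came last.

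Malat1 stood at 13141 and 9477 CPM in WT, 13823 and 12107 CPM in het, and 10281 and 10873 CPM in UTRmut, so its lowest library was again the WT male and its highest the het female. Rian varied least, with 923 and 786 CPM in WT, 946 and 882 CPM in het, and 752 and 823 CPM in UTRmut. Its SD over the 6 libraries was 0.13 on the log2 scale, against 0.34 for Meg3, its neighbour in the cluster. The median SD over all genes tested was 0.16, but their median level was lower (mean log2 CPM 4.09, against 9.73 for Rian). Genes of like level were not compared.

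Mirg and Neat1 followed other orders. Mirg stood at 62.1 and 59.1 CPM in WT, 73.6 and 89.0 CPM in het, and 58.5 and 65.3 CPM in UTRmut, and both het libraries were above the other 4. Neat1 stood at 21.0 and 38.1 CPM in WT, 41.5 and 38.0 CPM in het, and 26.5 and 20.6 CPM in UTRmut. The WT female, which was highest for Meg3, Miat and Snhg11, was among the 2 lowest for Neat1. Neat1 rested on 218 to 441 counts per library, the fewest of the 7.

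**Figure D1:**
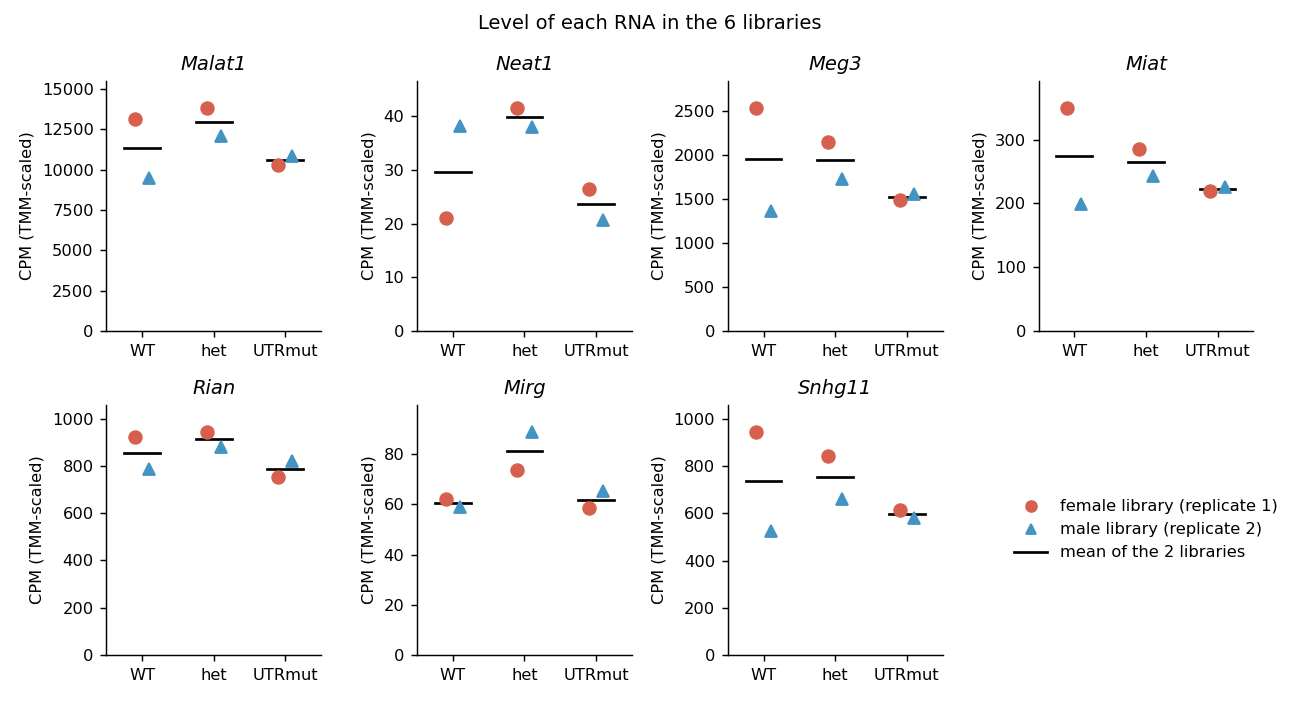
CPM (TMM-scaled, axis from 0) of the 7 RNAs in each library, by genotype; circles are the female and triangles the male library, and bars are means of 2. For Meg3, Miat and Snhg11 the 2 WT libraries hold the highest and the lowest value, and for all 7 RNAs both UTRmut libraries lie below both het libraries.

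**Figure D2:**
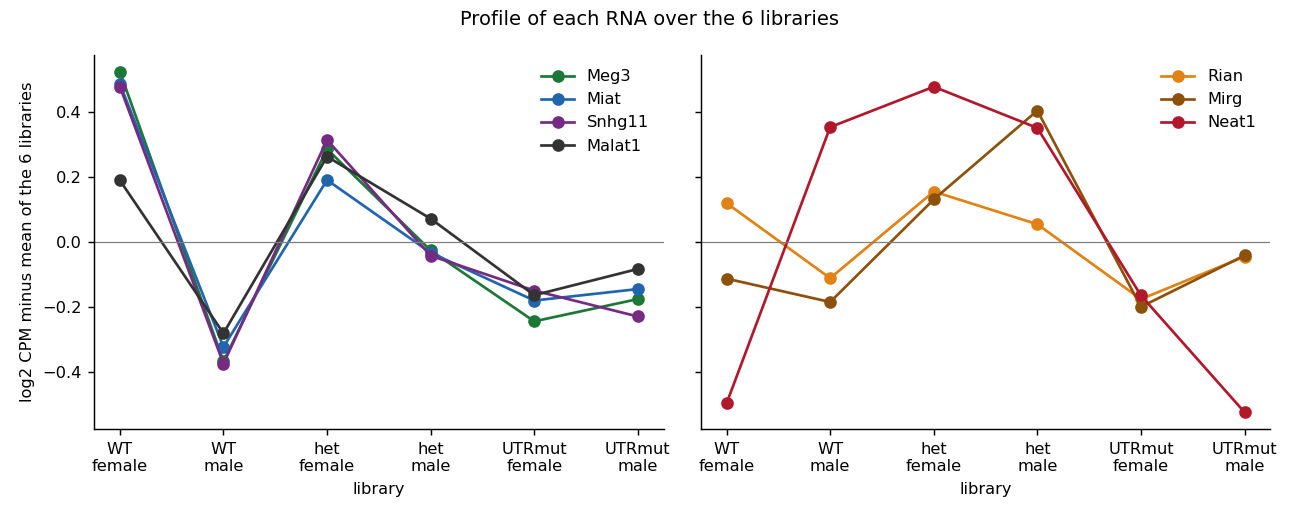
Log2 CPM of each RNA minus its mean over the 6 libraries, with lines joining the values of one RNA as a guide. Meg3, Miat and Snhg11 trace nearly 1 line and Malat1 a flatter one, while Rian is flatter still and Mirg and Neat1 peak in het.

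Ratios within a library, which need no scaling between libraries, showed the same grouping. Per 100 counts of Meg3 there were 37.1 to 41.1 counts of Snhg11 and 13.2 to 14.8 counts of Miat over the 6 libraries, although Meg3 itself differed 1.86-fold. Measured as the root mean square difference of the centred log2 CPM over the 6 libraries, Snhg11 was the 3rd closest of 16118 genes to Meg3 (0.05) and Miat the 4th closest (0.05), against a median of 0.35 for all genes. This is a description of 6 libraries that share depth and preparation with every other gene. The ratio held even between the WT female, with 37.3 counts of Snhg11 per 100 of Meg3, and the WT male, with 38.3.

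The imprinted neighbours of Meg3 did not keep such a ratio. Rian had 36.3 counts per 100 of Meg3 in the WT female (95% exact binomial interval 35.5 to 37.2) and 57.5 in the WT male (56.0 to 59.0), with 43.9, 50.9, 50.4 and 52.7 in the het female, het male, UTRmut female and UTRmut male. Mirg had 2.44 counts per 100 of Meg3 in the WT female (2.26 to 2.64) and 5.14 in the het male (4.81 to 5.48), the lowest and highest of the 6. By the same distance Rian ranked 1023rd (0.21) and Mirg 7045th (0.33) of 16118 genes from Meg3, or at 6.35% and 43.7%. The median distance was 0.35, so Rian was still closer to Meg3 than most genes. These intervals, like the others given here, cover counting error only, since the reads carry no molecular identifiers and may repeat 1 molecule.

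Malat1 and Neat1, neighbours on chromosome 19, also went apart. Neat1 had 0.16 counts per 100 of Malat1 in the WT female (0.139 to 0.183) and 0.402 in the WT male (0.365 to 0.441), and the het and UTRmut libraries lay between. Malat1 was closer to Rian (0.09, the 106th closest gene) than to Neat1 (0.45).

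**Figure D3:**
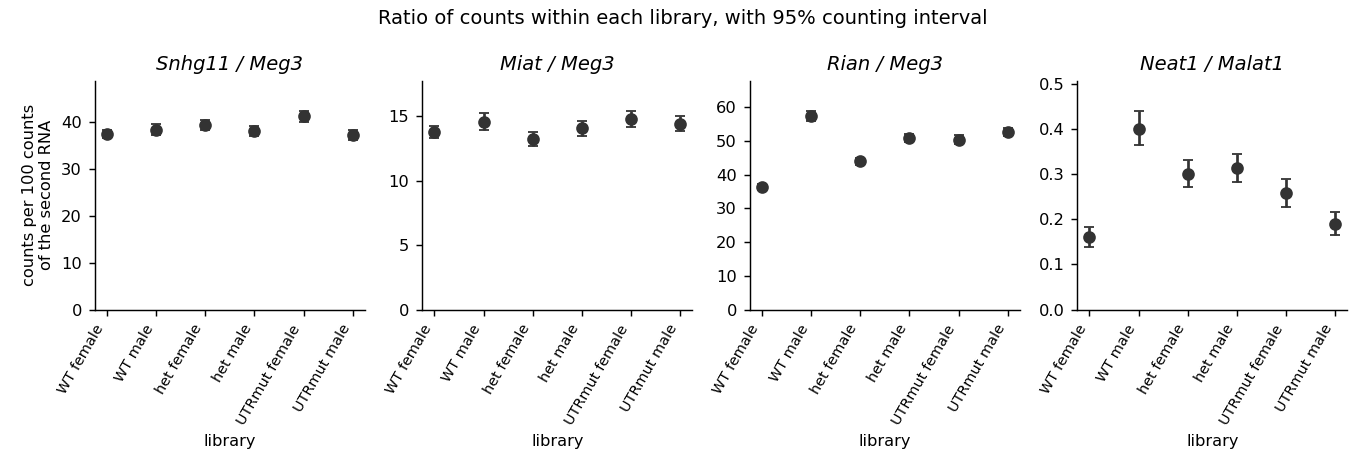
Counts of one RNA per 100 counts of another in each library (axes from 0), with 95% exact binomial intervals of counting error. Snhg11 and Miat per Meg3 are nearly level, Rian per Meg3 runs from 36.3 to 57.5 and Neat1 per Malat1 from 0.16 to 0.402.

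The first comparison asked whether mice with 2 mutant alleles differed from WT. Of the 7 RNAs, 6 had a log2 fold below 0 and none passed, where a gene passed at a Benjamini-Hochberg adjusted p under 0.05 in the edgeR quasi-likelihood test. Over all genes 0.0062% passed (1 gene) and 52.1% had a log2 fold below 0. At an unadjusted p under 0.05 the count of the 7 was again 0, against 2.71% of all genes, and DESeq2 also called 0. WT and UTRmut overlapped for all 7, whereas 14% of all genes were apart with UTRmut higher and 14.6% with UTRmut lower.

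Meg3 averaged 1954 ± 829 CPM in WT and 1526 ± 51.3 CPM in UTRmut (SD, n = 2), a log2 fold of -0.36 with SE 0.36 (edgeR adjusted p = 0.999). The difference was no larger than its error, and the 2 WT libraries were the highest and the lowest of the 6. Miat gave -0.30 (SE 0.29), Snhg11 -0.30 (SE 0.34), Neat1 -0.33 (SE 0.27), Rian -0.12 (SE 0.09), Malat1 -0.10 (SE 0.16) and Mirg 0.03 (SE 0.11), all with an adjusted p of 0.999. Leaving out the WT female turned the log2 folds of Malat1, Meg3, Miat, Snhg11 and Rian above 0 (0.16, 0.16, 0.16, 0.18 and 0.00069). Leaving out the WT male instead gave -0.73 for Meg3, -0.64 for Miat and -0.66 for Snhg11, which then passed (edgeR adjusted p = 0.006, 0.00566 and 0.0316), and turned Neat1 to 0.17.

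In het against WT the clearest value was that of Mirg, the microRNA host. Its mean was 81.3 ± 10.9 CPM in het and 60.6 ± 2.15 CPM in WT (SD, n = 2), a log2 fold of 0.43 with SE 0.11, and both het libraries exceeded both WT libraries. Its unadjusted edgeR p of 0.00196 was the 15th smallest of 16119, and it did not pass (adjusted p = 0.9998). Groups were apart with het higher for 13.4% of all genes and with het lower for 13.6%. Among the 7, Mirg was also the single RNA with an unadjusted p under 0.05, against 2.37% of all genes.

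None of the 7 passed in this comparison by edgeR or by DESeq2, against 0.0124% of all genes (2 genes). A log2 fold above 0 was found for 5 of them, against 48.9% of all genes. Neat1 gave 0.42 (SE 0.27), Malat1 0.20 (SE 0.16), Rian 0.10 (SE 0.09), Snhg11 0.03 (SE 0.34), Meg3 -0.01 (SE 0.36) and Miat -0.05 (SE 0.29). Without the WT male, Neat1 gave 0.92 and passed (edgeR adjusted p = 0.0232).

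UTRmut against het was the comparison in which the 7 lay on one side. Both UTRmut libraries were below both het libraries for all 7 RNAs, against 17.9% of all genes. The log2 folds were -0.76 for Neat1 (SE 0.27), -0.39 for Mirg (SE 0.11), -0.35 for Meg3 (SE 0.36), -0.34 for Snhg11 (SE 0.34), -0.29 for Malat1 (SE 0.16), -0.25 for Miat (SE 0.29) and -0.22 for Rian (SE 0.09), and 50.3% of all genes had a log2 fold below 0. Since several of these RNAs move together across libraries, they are not 7 independent observations.

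None of the 7 passed (edgeR adjusted p = 0.9999 for each), against 0.0124% of all genes (2 genes), and DESeq2 called 0. An unadjusted edgeR p under 0.05 was found for 3 of them, Mirg (0.00334), Neat1 (0.0282) and Rian (0.0328), against 2.8% of all genes. Neat1 averaged 39.8 ± 2.49 CPM in het and 23.6 ± 4.17 CPM in UTRmut (SD, n = 2). It passed where the spread was estimated without one WT library (adjusted p = 0.0312 without the female and 0.0323 without the male), from the 4 het and UTRmut libraries alone (0.0325) or without a filter on low counts (0.000377). The comparisons share groups, so that the het libraries enter both this one and the one above.

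**Figure D4:**
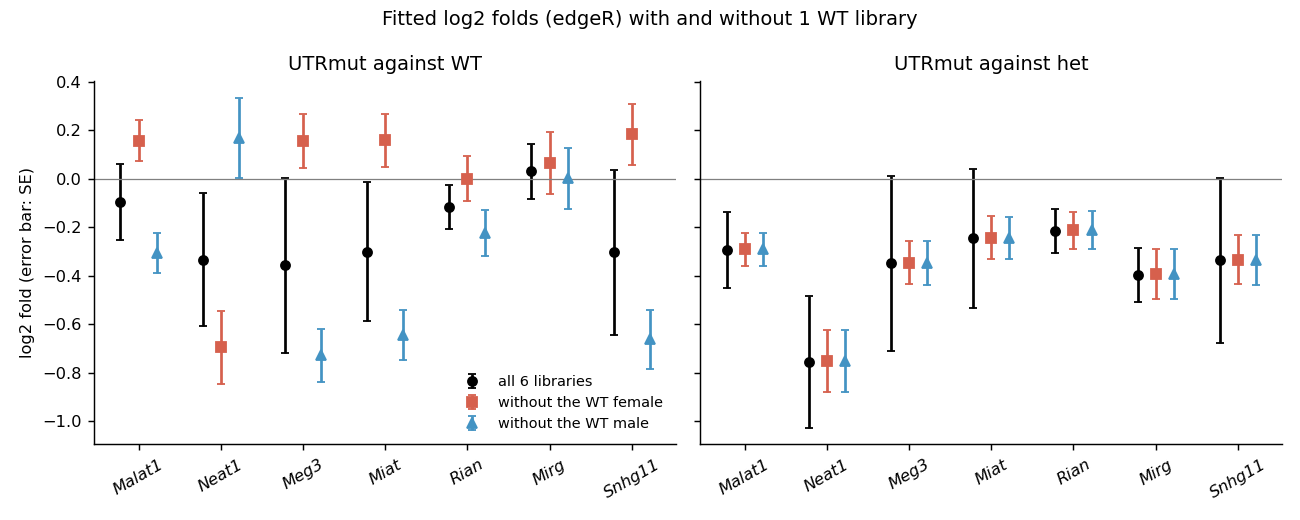
Fitted log2 folds (edgeR) with their SE for UTRmut against WT (left) and UTRmut against het (right), from all 6 libraries (circles) and without the WT female (squares) or the WT male (triangles). On the left Meg3 goes from -0.36 to 0.16 or -0.73. On the right all 7 are below 0. No WT library enters that log2 fold, so leaving out a WT library could change little but the SE.

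Meg3, Miat, Snhg11, Malat1, Rian and Neat1 differed most between the sexes in WT, and Mirg in het. As shares of all counts, the WT female exceeded the WT male 1.92-fold for Meg3 (95% interval 1.88 to 1.96), 1.87-fold for Snhg11, 1.82-fold for Miat, 1.43-fold for Malat1 and 1.21-fold for Rian. Mirg was at 1.09 (0.975 to 1.21) and Neat1 at 0.571 (0.483 to 0.673). In het the same ratio was 1.24 for Meg3, 1.28 for Snhg11, 1.17 for Miat, 1.14 for Malat1, 1.07 for Rian, 1.09 for Neat1 and 0.828 for Mirg (0.750 to 0.913). In UTRmut it was 0.974 for Meg3, 0.997 for Miat, 1.08 for Snhg11, 0.966 for Malat1, 0.933 for Rian, 0.915 for Mirg and 1.31 for Neat1 (1.10 to 1.57), so that Neat1 lay on opposite sides of 1 in WT and UTRmut.

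Over the 3 genotypes, females against males gave a log2 fold of 0.43 for Snhg11 (SE 0.15, edgeR adjusted p = 0.699), 0.38 for Meg3 (SE 0.23), 0.33 for Miat (SE 0.17), 0.19 for Malat1 (SE 0.10) and 0.07 for Rian (SE 0.07), while Mirg gave -0.12 (SE 0.09) and Neat1 -0.12 (SE 0.25). None of the 7 passed by edgeR or DESeq2, against 0.0372% of all genes (6 genes). One of the 7, Snhg11, had an unadjusted p under 0.05, against 6.99% of all genes, and 5 had a log2 fold above 0, against 49.6%.

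The last comparison tested whether the change per mutant allele differed between females and males. UTRmut minus WT was -0.77 in females and 0.19 in males for Meg3, -0.67 and 0.18 for Miat, and -0.63 and 0.15 for Snhg11 (log2 CPM, 1 library per genotype and sex). The female slope per allele minus the male slope was -0.48 for Meg3 (SE 0.10, edgeR adjusted p = 0.0368) and -0.42 for Miat (SE 0.08, adjusted p = 0.0118), and these 2 of the 7 passed, against 1.2% of all genes in either direction and 0.31% in this direction. Snhg11 gave -0.39 (SE 0.10, adjusted p = 0.118), Malat1 -0.28 (SE 0.13), Rian -0.18 (SE 0.08), Mirg -0.11 (SE 0.32) and Neat1 0.58 (SE 0.53).

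Both calls rested on single libraries. With all 6 libraries, Meg3 did not pass by DESeq2 (adjusted p = 0.108) or with TMM on protein-coding genes (edgeR adjusted p = 0.05003). Neither RNA passed without the WT female, the UTRmut female or the WT male, and over all alternatives the adjusted p reached 0.632 for Meg3 and 0.673 for Miat. The fit takes allele number as linear and has 2 residual degrees of freedom. Sex and replicate number are the same label here, so a difference between the sexes and one between the 2 sets of libraries cannot be told apart. Marker genes differed in the same comparison: 9 of 10 neuron markers were above 0 (median 0.07, 1 passed), 7 of 7 interneuron markers were above 0 (median 0.12, 0 passed), 6 of 7 astrocyte markers were above 0 (median 0.11, 1 passed) and 7 of 7 oligodendrocyte markers were below 0 (median -0.19, 0 passed). Of 10 tested mitochondrial mRNAs, 7 were above 0 and 2 passed as higher, and over all genes 48.9% were above 0. The median of the 7 RNAs was -0.28. Among other small nucleolar RNA hosts, 11 of 13 were below 0 (median -0.28, 0 passed). Among other nuclear long RNAs, 7 of 11 were below 0 (median -0.10, 0 passed). The part of these other genes in the values of Meg3 and Miat was not tested.

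As a gauge of the library, the 7 RNAs together took 1.85% of all counts in the WT female and 1.24% in the WT male, 1.84% and 1.59% in the het female and male, and 1.32% and 1.36% in the UTRmut female and male. The WT and het females, the 2 highest by this share, also came first for several annotation classes but not for all. The TEC class (models still to be verified, many of them inside introns) took 0.751% in the WT female and 0.680% in the het female, against 0.452% to 0.523% in the other 4. Genes of the sense intronic class took 0.0972% and 0.0879%, against 0.0674% to 0.0769%, and antisense genes 0.218% and 0.206%, against 0.179% to 0.188%. The small nuclear RNA class (snRNA) took 0.0555% and 0.0524%, against 0.0407% to 0.0518%. The small nucleolar RNA class (snoRNA) took 0.0451% and 0.03915%, against 0.0318% to 0.0370%. The 13 mitochondrial mRNAs, which come from outside the nucleus, took 0.939% to 1.03% and did not set these 2 libraries apart as higher. The misc_RNA class, most of whose counts came from the single gene Rn7sk, ranked the libraries otherwise. It took 1.98% in the het male, 1.72% in the het female and 1.56% to 1.67% in the other 4, with 1.61% in the WT female. Rn7sk is the abundant nuclear RNA that holds the transcription elongation factor P-TEFb inactive. In TMM-scaled CPM it was lowest in the WT libraries, at 15418 CPM in the female and 15532 CPM in the male. It was highest in the het male, at 19369 CPM. None of 3 tested genes of a list of 5 small nuclear RNAs passed in the genotype or sex comparisons, with medians of -0.006 in UTRmut against WT, 0.22 in het against WT, -0.18 in UTRmut against het and -0.09 in female against male.

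**Figure D5:**
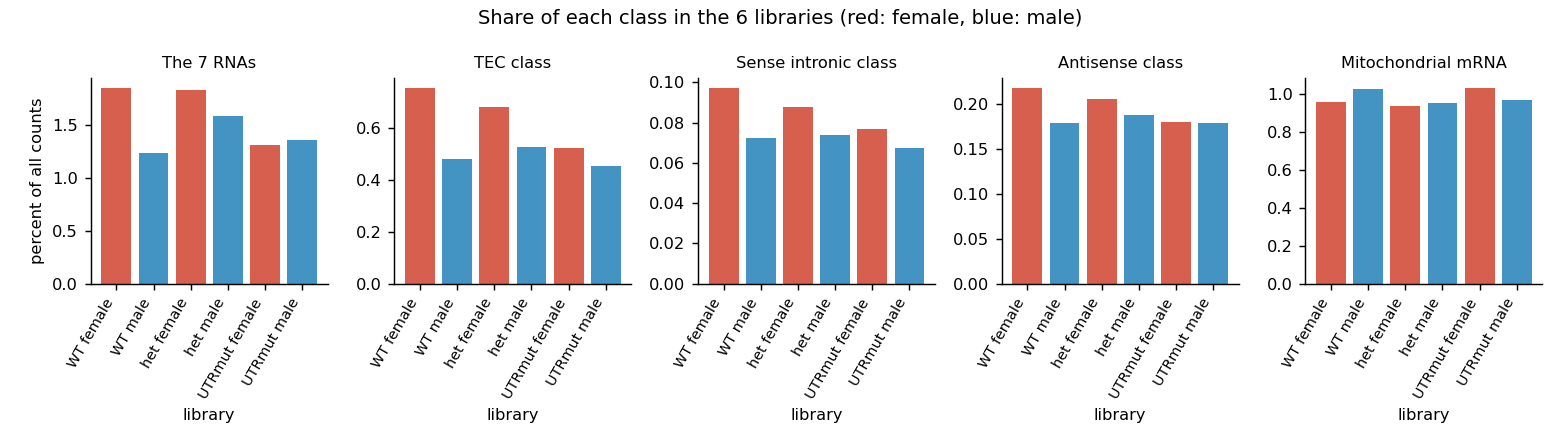
Percent of all counts (axes from 0) taken by the 7 RNAs, by 3 annotation classes and by mitochondrial mRNA in each library, females in red and males in blue. The WT and het females are the 2 highest in the first 4 panels and not in the last.

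The 7 RNAs gave different readings of the same 2 WT libraries. Meg3, Miat and Snhg11 put the WT female 1.82 to 1.92-fold above the WT male, Malat1 put it 1.43-fold and Rian 1.21-fold above, Mirg did not separate them beyond counting error, and Neat1 put it below. Several lists of cell type markers also differed in these libraries. In the WT female the median log2 CPM, relative to the 6 libraries, was -0.17 for 7 interneuron markers, -0.16 for 7 astrocyte markers, -0.15 for 7 microglia markers and -0.07 for 10 neuron markers, the lowest of the 6 libraries for each of these lists. It was 0.05 for 7 oligodendrocyte markers, 0.03 for 9 excitatory cortex markers and 0.003 for 6 endothelial markers, so that the lists did not share 1 direction. In the WT male the neuron markers were at 0.11, and the summed choroid plexus markers reached 47.9 CPM against 2.24 to 9.66 CPM elsewhere. Their part in the values of the 7 RNAs was not tested, and in bulk tissue fewer cells of a type and less RNA per cell cannot be told apart.

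Genes of the proteins that work with these RNAs did not pass in the genotype or sex comparisons. Of 15 paraspeckle protein genes none passed in UTRmut against WT, het against WT, UTRmut against het or female against male, and their median log2 fold was -0.002, -0.001, -0.002 and -0.04, against medians of all genes within 0.01 of 0. Of 13 genes of speckle components and splicing factors none passed in these comparisons, with medians of -0.01, -0.02, 0.01 and 0.03, and Srrm2, a scaffold of nuclear speckles, gave 0.26 in females against males (SE 0.07, edgeR adjusted p = 0.565). The 3 partners of Miat did not pass either, Qk, an RNA-binding protein, being nearest in het against WT (0.21, SE 0.08).

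Other nuclear long RNAs were measured as 11 tested genes of a list of 12, and none passed in these 4 comparisons. Their median log2 fold was 0.005 in UTRmut against WT and 0.01 in het against WT, and it was -0.20 in UTRmut against het, with 8 of 11 below 0, against 50.3% of all genes. In female against male it was 0.12, with 8 of 11 above 0, against 49.6% of all genes. Summed, the listed genes were highest in the WT female (1623 CPM) and the het female (1536 CPM) and lowest in the WT male (1275 CPM). Their median relative to the 6 libraries was 0.001 in the WT female and 0.12 in the het female. Kcnq1ot1, the long RNA of another imprinted domain, gave -0.36 in UTRmut against WT (SE 0.18) and 0.30 in females against males (SE 0.08, edgeR adjusted p = 0.565). Among other small nucleolar RNA hosts, 12 of 13 had a log2 fold above 0 in UTRmut against WT, against 47.9% of all genes, with a median of 0.22, and their median in the WT male was -0.32 relative to the 6 libraries. Of these, Epb41l4aos was nearest to passing (0.77, SE 0.34). None passed.

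Within the Dlk1-Dio3 domain, the genes expressed from the other chromosome were close to absent: Dlk1, Rtl1 and Dio3 stayed under 1 CPM in every library. Begain, at the edge of the domain, gave 0.05 in UTRmut against WT (SE 0.10) and was the 1 gene tested of 5 listed. Between Rian and Mirg lie B830012L14Rik (chr12:109695586-109702587), a lincRNA, and Gm37899 (chr12:109668869-109677585), a TEC model. B830012L14Rik ran from 51.0 CPM in the WT male to 82.4 CPM in the het female, and Gm37899 from 34.2 to 63.4 CPM in the same 2 libraries. In het against WT they gave 0.31 (SE 0.17) and 0.36 (SE 0.23), and neither passed in any comparison. Of 15 tested genes of other imprinted domains none passed in the 4 comparisons, with a median of 0.0006 in UTRmut against WT, and Nnat, a small membrane protein gene, gave -0.49 in females against males (SE 0.10, edgeR adjusted p = 0.331).

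The small RNA genes inside the 7 had counts mainly where they lie outside the exons of the host. Hairpin genes wholly inside an exon of Meg3 or Mirg, such as Mir770, Mir134, Mir485, Mir377 and Mir410, had 0 counts in all 6 libraries. Among hairpin genes in introns of Mirg, Mir453 had 176 counts over the 6 libraries, Mir496a 107, Mir541 98 and Mir154 95. The small nucleolar RNA gene Gm25129, in an intron of Snhg11, had 120, and Gm25187, in an exon, had 0.

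The same held for the whole table. Of 275 genes lying inside an exon of a same-strand gene with at least 1000 counts, 0 had a count, while on the opposite strand 69 of 158 (43.7%) had one. A 0 at such a gene is therefore no sign that its RNA is missing, and counts in introns come from any read there, unspliced host RNA included. The opposite-strand gene Gm37376, within Malat1, had 76 counts, against 743417 for Malat1, and Gm26953, opposite Miat, had 27.

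The genes outside the 7 with profiles most like each RNA, among named genes that varied at least as much over the 6 libraries, were Coro6 and Ikzf2 for Meg3 (root mean square difference 0.09 for both), Tpcn2 (0.03) and Ccdc9b (0.05) for Miat, and B9d1os and Olfr1564 for Snhg11 (0.07 for both). For Malat1 they were Itga9 (0.04) and Zcchc7 (0.05), for Rian Bmp1 (0.04), and for Mirg Kifc5b (0.05) and Fbxo4 (0.06). For Neat1 they were Col6a3 (0.13) and Papolb (0.14). These distances are not scaled to the spread of the RNA, and the candidates differed in number. Neat1 had an SD of 0.45 and 611 candidates, against 0.13 and 6720 for Rian.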

How the data were processed

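Total RNA libraries (TruSeq Stranded Total RNA kit, per the labels' protocols) were analysed from 1 deposited table of raw read counts per Ensembl gene, not normalised and not pooled, 1 column per library. Tools and build per the submitters' processing notes, which give no roles, were HTSeq 0.6.0, HISAT2, Trimmomatic 0.39, GATK 4.2.3.0 and GRCm38. The strand setting of the counting, not given in the sources used here, was read from overlapping genes. Symbols, classes and positions came from GENCODE (GRCm38) and matched 55227 of 55487 identifiers. The deposited counts were filtered with filterByExpr by genotype (minimum count 10, total 15), scaled with TMM factors and tested in 1 fit of all 6 libraries with edgeR 4.0.16 (quasi-likelihood, robust) in R 4.3.3, with Benjamini-Hochberg adjustment over 16119 genes. Sex was tested with genotype in the model, and the sex difference with allele number as linear. SE is the size of the log2 fold over the root of the F statistic. The procedure was tested on simulated data. CPM is TMM-scaled, and log2 CPM used a prior count of 2. Alternatives were DESeq2 1.42.0, its size factors, TMM on protein-coding genes, no filter, no robust step, a replicate block, only the 2 genotypes compared, and leaving out each library.

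The text names the 7 RNAs throughout, Mmp9, genes overlapping the 7, from each list up to 3 genes with the smallest unadjusted p in UTRmut against WT, het against WT or female against male, and for each RNA the 2 named genes closest in profile, except that some of these are not reported here. Genes given to describe levels (Slc17a7, Ttr, Folr1, Aqp1, Dlk1, Rtl1, Dio3) and the 2 genes between Rian and Mirg were added. The 7 RNAs and the lists were chosen with earlier results of these data known.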

Additional observations from a re-analysis of the deposited data

Results flagged for a closer look

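Meg3 and Miat drew attention because the change with the mutant allele differed between the sexes by a test of the difference itself. The female minus male slope per allele was -0.48 for Meg3 and -0.42 for Miat on the log2 scale (edgeR adjusted p = 0.0368 and 0.0118). Each slope rests on 1 library per genotype and sex. The values lost their calls without the WT female (-0.62 and -0.45), the UTRmut female (-0.33 and -0.39) or the WT male (-0.23 and -0.22), and kept their sign in each case. With all 6 libraries Meg3 also lost its call under DESeq2 (adjusted p = 0.108) and with TMM on protein-coding genes (edgeR adjusted p = 0.05003), where Miat still passed.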

How the results depend on the processing

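The count of the 7 RNAs that passed was 0 in the first 4 comparisons and 2 for the sex difference per allele. In UTRmut against het it was 1 (Neat1) without a filter on low counts and 1 from only the 2 genotypes compared. In female against male it was 2 (Miat and Snhg11) without the filter. For the sex difference it was 1 (Miat) with TMM on protein-coding genes, 1 (Miat) with DESeq2 and 4 without the filter. Leaving out 1 library gave 0 to 3 in UTRmut against WT, 0 to 1 in het against WT, 0 to 1 in UTRmut against het and 0 to 5 for the sex difference. Where a genotype was left with 1 library, that library is assumed to vary like the others. The number of all genes passing also moved with the setting, as from 1 to 27 in UTRmut against WT without the filter. The counts of the 7 in this paragraph are not set against that number.

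Log2 folds changed sign mostly when a library was left out, and ran over those 6 fits as follows. In UTRmut against WT they ran from -0.31 to 0.16 for Malat1, -0.70 to 0.17 for Neat1, -0.73 to 0.16 for Meg3, -0.64 to 0.16 for Miat, -0.22 to 0.00069 for Rian, -0.051 to 0.11 for Mirg and -0.66 to 0.18 for Snhg11. In het against WT they ran from -0.016 to 0.45 for Malat1, -0.38 to 0.50 for Meg3, -0.40 to 0.40 for Miat, -0.010 to 0.21 for Rian and -0.33 to 0.52 for Snhg11. In female against male they ran from -0.34 to 0.23 for Neat1 and -0.016 to 0.17 for Rian. For the sex difference they ran from -0.21 to 1.40 for Neat1, -0.36 to 0.0025 for Rian and -0.63 to 0.41 for Mirg. In UTRmut against het no log2 fold of the 7 changed sign under any alternative run. For the fits leaving out a library this was fixed in advance, since both UTRmut libraries lay below both het libraries for all 7. Of 427 log2 folds over all alternatives, 378 kept their sign and their side of the threshold, 24 changed sign, 17 came to pass and 8 ceased to pass. The cause of these changes was not tested.

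With the replicate block (sex), Meg3 in het against WT went from -0.01 to 0.029, and 0 of the 7 passed in each of the 3 genotype comparisons. The labels do not say whether the shared numbers pair the samples beyond sex, and correlations of 1 library per genotype cannot settle it. Deviations of same-numbered libraries correlated at 0.15 (WT with het), 0.30 (het with UTRmut) and -0.35 (WT with UTRmut). Over all genes, 1 passed in UTRmut against WT, 4 with the replicate block, 8 with DESeq2, 27 without the filter and 103 without the WT male. For the sex difference 194 genes passed, 77 with DESeq2 and 24 without the WT female. Depth limited Neat1 most, with 218 to 441 counts per library.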
